A study of Mus musculus with 4 samples.

Results

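The members are 10 genes of the Notch pathway, Notch1, Notch2, Dtx1, Hes1, Rbpj, Lfng, Mfng, Adam10, Maml1 and Maml2, in mouse B lymphocytes. They were taken by symbol, and each is represented by the probe set with the highest mean signal among those annotated to that symbol alone. All 10 were found among the 22180 genes that had such a probe set. Levels are given as log2 signals from RMA, on which a step of 1 is 2-fold. A gene was used where at least 1 array reached 3.83, the median of all named signals and here called the signal floor, which left 12456 genes. The 10 members lay above that floor in all 4 arrays.

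Notch receptors are cut on the surface of the receiving cell after they bind a Delta or Jagged ligand on a neighbour. The freed intracellular part enters the nucleus, joins the DNA-binding protein RBPJ and a Mastermind coactivator, and turns on target genes such as Hes1 and Dtx1. In the mouse spleen, Notch2 with the ligand DLL1 is required for marginal zone B cells, a subset that sits beside the marginal sinus, whereas Notch1 directs T cell fate in the thymus.

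The arrays came from stimulated Tilcara cells, non-stimulated Tilcara cells, stimulated wild-type cells and non-stimulated wild-type cells, with 1 array in each group. Tilcara (Til) is a PKCbeta mutant on the C57BL/6 background, and the wild-type mice were also C57BL/6; PKCbeta is the kinase encoded by Prkcb. Stimulation was with phorbol 12-myristate 13-acetate (PMA) at 10 ng/mL, which activates protein kinase C, together with the calcium ionophore A23187 at 1 µM, for 4 hours. Cells were sorted by B220 (CD45R) from spleens, thymi and lymph nodes, so marginal zone B cells were not separated from other B cells and the data speak of the sorted B cells as a whole. The sources used here do not give the number or age of the mice behind each array, or the nature of the Til allele.

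Prkcb had signals of 7.27 in stimulated Tilcara and 7.28 in stimulated wild type, and of 9.39 in non-stimulated Tilcara and 9.42 in non-stimulated wild type. The allele is described as a mutant and not as a deletion, so these levels check nothing about the genotype labels. Across all probe sets Pearson's r was 0.981 between the stimulated arrays and 0.978 between the non-stimulated arrays, against 0.916 to 0.927 between states. All 7 measured B cell markers lay above the floor in the 4 arrays. With 1 array in each group, no spread within a group could be measured. The stimulation effect was tested with limma over all genes used in an additive fit, in which the genotypes stand as the 2 samples of each state. The fit leaves 1 residual degree of freedom, which is how far the response in Tilcara departs from that in wild type. The limma error joins this departure with a spread estimated over all genes, which carries 3.46 degrees of freedom, so a small p says that a gene's step was large beside an error that is mostly common to all genes. A gene is said to have risen or fallen where its adjusted p (Benjamini-Hochberg over all genes used) was below 0.05.

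With stimulation, 3 members rose (Notch1, Rbpj and Adam10) and 4 fell (Notch2, Hes1, Maml2 and Dtx1), while Lfng, Mfng and Maml1 did not pass. The call of Rbpj is that of its brighter probe set, which may measure a pseudogene, as set out with its values. Over all genes used, 22.0% rose, 22.8% fell and 44.8% passed in either direction. The median stimulation effect over the 10 members was -0.08 on the log2 scale, against 0.04 over all genes used. By size alone, Notch1 and Rbpj were at least 2-fold up with stimulation in Tilcara, where 11.9% of all genes used were, and Notch2, Hes1, Maml2 and Dtx1 at least 2-fold down, where 14.3% were. The same 2 and 4 genes passed 2-fold in wild type, against 13.4% and 15.9% of all genes used. In 8 members both stimulated arrays lay on one side of both non-stimulated arrays, a pattern found in 74.6% of all genes used.

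**Figure D1:**
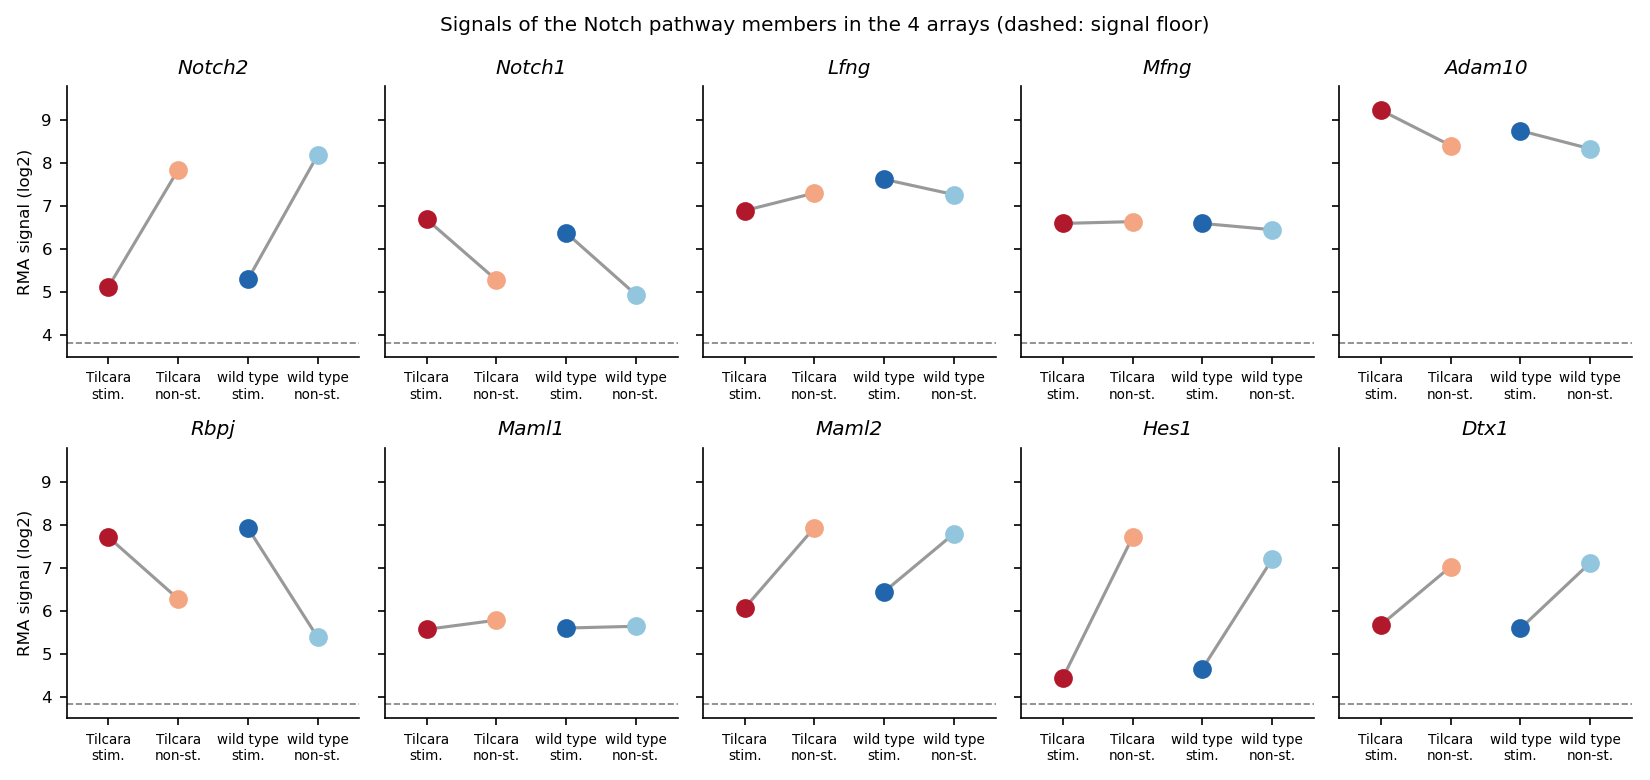
Each panel plots the log2 RMA signal of 1 member (y axis) in the 4 arrays (x axis), stimulated (stim.) left of non-stimulated (non-st.) within each genotype; a point is 1 array, a grey line joins the arrays of a genotype, and the dashed line is the signal floor of 3.83. Notch2, Hes1, Maml2 and Dtx1 are lower in both stimulated arrays, and Notch1, Rbpj and Adam10 are higher.

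The receptors moved in opposite directions. Notch2 read 5.13 in stimulated Tilcara and 5.30 in stimulated wild type, against 7.85 in non-stimulated Tilcara and 8.19 in non-stimulated wild type. Both stimulated arrays thus lay 2.55 or more below both non-stimulated arrays. The signal was 6.61-fold lower with stimulation in Tilcara and 7.42-fold lower in wild type. Notch2 fell by 2.81 on the log2 scale over both genotypes (limma, SE 0.15, adjusted p = 0.00121), and 2.08% of all genes used had a lower effect. In a bulk sample, fewer cells of one kind and less RNA per cell cannot be told apart.

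Notch1 read 6.70 in stimulated Tilcara and 6.39 in stimulated wild type, against 5.29 in non-stimulated Tilcara and 4.95 in non-stimulated wild type. It was 2.66-fold higher with stimulation in Tilcara and 2.72-fold higher in wild type, nearly the same step in both. Its effect over both genotypes was a rise of 1.43 (limma, log2, SE 0.15, adjusted p = 0.00318). The change of Notch1 minus the change of Notch2 came to 4.14 log2 units in Tilcara and 4.33 in wild type, with no test of this quantity. Signals of different probe sets cannot be set against each other, so which receptor was the more abundant in either state was not measured.

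The 300-base windows around the starts of both receptor genes, of the target Dtx1, of Rbpj and of the fringe gene Lfng are taken from a RefSeq table of promoters and shown because these genes moved in different directions or, for Lfng, held both motifs searched. Each window runs from 250 bases before to 50 bases after the start and is written 5′ to 3′ on the strand of the gene. Capitals mark TGGGAA, the core that RBPJ binds, and CACNAG, the N-box that HES repressors bind, each searched on both strands.
Notch2, GRCm38.p6 chr3:98013288-98013587, plus strand: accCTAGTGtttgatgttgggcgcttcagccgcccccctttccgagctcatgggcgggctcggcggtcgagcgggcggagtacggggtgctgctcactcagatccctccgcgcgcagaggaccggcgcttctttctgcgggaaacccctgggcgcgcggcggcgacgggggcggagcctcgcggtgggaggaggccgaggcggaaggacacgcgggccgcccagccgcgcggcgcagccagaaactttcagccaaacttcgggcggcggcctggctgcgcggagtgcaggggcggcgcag
Notch1, GRCm38.p6 chr2:26503773-26504072, minus strand: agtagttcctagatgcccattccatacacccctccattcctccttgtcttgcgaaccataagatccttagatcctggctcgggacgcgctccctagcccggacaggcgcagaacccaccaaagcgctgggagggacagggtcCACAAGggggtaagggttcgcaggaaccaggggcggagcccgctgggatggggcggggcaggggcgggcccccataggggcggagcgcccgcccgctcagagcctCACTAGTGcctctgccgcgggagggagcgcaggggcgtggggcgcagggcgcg
Dtx1, GRCm38.p6 chr5:120711620-120711919, minus strand: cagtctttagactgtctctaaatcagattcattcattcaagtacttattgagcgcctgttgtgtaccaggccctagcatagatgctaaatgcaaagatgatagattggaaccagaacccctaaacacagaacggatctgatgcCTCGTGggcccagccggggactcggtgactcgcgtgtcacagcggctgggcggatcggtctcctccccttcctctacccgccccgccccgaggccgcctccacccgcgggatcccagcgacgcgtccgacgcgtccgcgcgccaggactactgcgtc
Rbpj, GRCm38.p6 chr5:53590096-53590395, plus strand: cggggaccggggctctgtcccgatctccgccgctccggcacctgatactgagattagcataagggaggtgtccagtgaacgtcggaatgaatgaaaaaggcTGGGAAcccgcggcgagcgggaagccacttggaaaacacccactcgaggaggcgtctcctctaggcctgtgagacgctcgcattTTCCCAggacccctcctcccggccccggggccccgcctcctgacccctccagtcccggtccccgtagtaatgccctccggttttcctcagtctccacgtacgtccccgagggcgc
Lfng, GRCm38.p6 chr5:140607091-140607390, plus strand: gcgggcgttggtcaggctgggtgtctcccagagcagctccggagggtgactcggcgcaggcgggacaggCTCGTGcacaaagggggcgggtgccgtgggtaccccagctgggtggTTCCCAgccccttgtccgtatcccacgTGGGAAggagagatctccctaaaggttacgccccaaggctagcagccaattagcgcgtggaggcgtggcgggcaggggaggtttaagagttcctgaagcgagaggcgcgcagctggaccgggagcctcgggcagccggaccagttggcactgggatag
Of the 8 members with an entry in that table, 3 (Rbpj, Lfng and Maml2) held TGGGAA in a window and 5 (Notch1, Notch2, Dtx1, Lfng and Maml2) held CACNAG. Rbpj and Maml2 had 2 windows each. By window, 4 of 10 held TGGGAA and 5 of 10 held CACNAG. Among all 32851 windows of this length, 25.6% held TGGGAA and 42.5% held CACNAG. The windows of both receptors and of Dtx1 held CACNAG and no TGGGAA, whichever way the gene moved. In the Rbpj window shown, the TGGGAA matches began 149 and 65 bases before the start, and in Lfng 135 and 108 bases before it. The other Rbpj window, around a second start, held 1 match, 205 bases before that start. It is the same stretch as the match at 65 bases in the window shown. The matches did not overlap each other except for 2 matches to CACNAG, on opposite strands at the start of Notch1. A match in these letters is no measurement of binding.

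The fringe enzymes, which add N-acetylglucosamine to O-fucose on Notch and thereby favour Delta ligands, did not pass the test. Lfng (lunatic fringe) read 6.90 in stimulated Tilcara and 7.63 in stimulated wild type, against 7.31 in non-stimulated Tilcara and 7.27 in non-stimulated wild type. The stimulated arrays therefore lay on either side of the non-stimulated ones, at -0.41 in Tilcara and 0.36 in wild type relative to their own non-stimulated array. The limma effect of -0.03 had an SE of 0.23 (adjusted p = 0.938). Mfng (manic fringe) read 6.60 in both stimulated arrays, against 6.64 in non-stimulated Tilcara and 6.46 in non-stimulated wild type. These 4 signals spanned 0.19 log2 units.

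Adam10, the protease that makes the ligand-dependent cut in Notch and is needed for marginal zone B cells in the mouse, read 9.24 in stimulated Tilcara and 8.76 in stimulated wild type, against 8.41 in non-stimulated Tilcara and 8.34 in non-stimulated wild type. Both stimulated arrays were above both non-stimulated ones, by at least 0.35. The steps were 1.77-fold in Tilcara and 1.34-fold in wild type. Adam10 rose by 0.62 (limma, log2, SE 0.17, adjusted p = 0.0447). That call was lost after cyclic loess between arrays, where the effect was 0.41 with an adjusted p of 0.113, and with no filter on low signals, where the adjusted p was 0.0718.

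Among the nuclear members, the brighter probe set annotated to Rbpj, the gene of the DNA-binding partner, rose, while the Mastermind coactivator genes did not. That probe set may measure a pseudogene, as set out below. Rbpj read 7.71 in stimulated Tilcara and 7.93 in stimulated wild type, against 6.28 in non-stimulated Tilcara and 5.38 in non-stimulated wild type. The non-stimulated arrays differed from each other more than the stimulated ones did. The step was 2.71-fold in Tilcara and 5.83-fold in wild type, and the limma effect was a rise of 1.99 (log2, SE 0.30, adjusted p = 0.008).

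Rbpj had a second, dimmer probe set, 17437490, which read 4.79 in stimulated Tilcara and 5.05 in stimulated wild type, against 3.49 in non-stimulated Tilcara and 3.65 in non-stimulated wild type. It gave steps of 1.30 in Tilcara and 1.40 in wild type on the log2 scale, both starting below the floor. It reached the floor only in the stimulated arrays, where it was high, so no test is given for it. The brighter probe set, 17466505, stood among identifiers of another chromosome. Identifiers of named probe sets ran in chromosome order, and the 12 nearest to 17437490 belonged to genes of chromosome 5, where RefSeq places Rbpj. The 12 nearest to 17466505 belonged to genes of chromosome 6; RefSeq lists the pseudogene Rbpj-ps3 between the adjoining genes Nobox and Ezh2. Whether the brighter signal is that of Rbpj, of the pseudogene or of both cannot be told from these values. Both probe sets read higher in both stimulated arrays than in both non-stimulated ones, and they gave steps of different size in wild type.

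**Figure D2:**
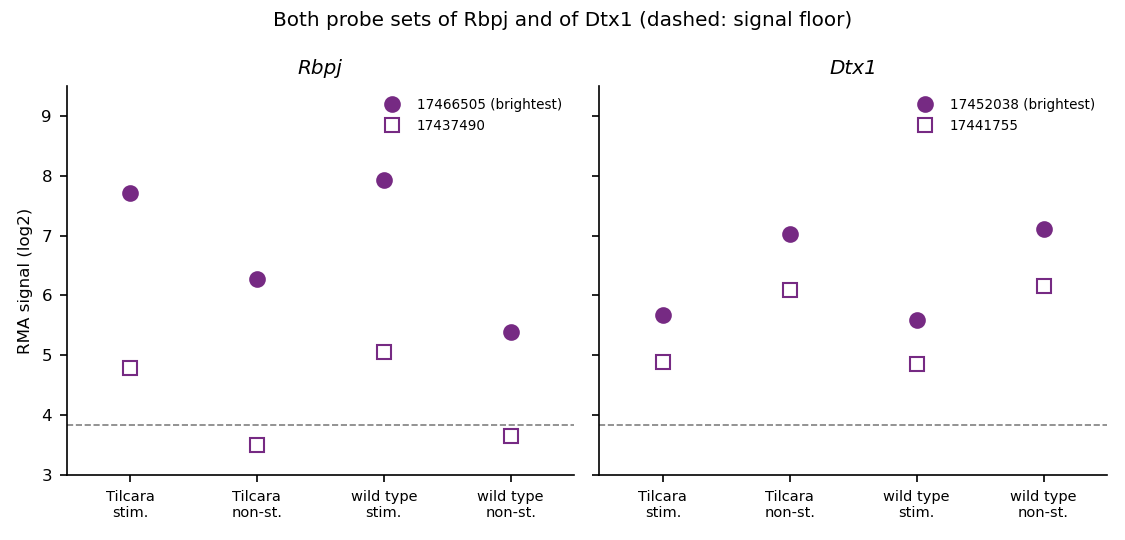
Log2 RMA signals (y axis) of both probe sets of Rbpj (left) and of Dtx1 (right) in the 4 arrays (x axis), with filled circles for the brightest probe set, open squares for the other and a dashed line at the floor of 3.83. The Dtx1 probe sets run in parallel, while the Rbpj probe sets lie closest together in the non-stimulated wild-type array, 1.73 apart, and 2.78 or more apart in the other arrays.

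Maml2, for a Mastermind coactivator of the Notch and RBPJ complex, read 6.07 in stimulated Tilcara and 6.44 in stimulated wild type, against 7.94 in non-stimulated Tilcara and 7.79 in non-stimulated wild type. It was 3.66-fold lower with stimulation in Tilcara and 2.55-fold lower in wild type. The fall over both genotypes was -1.61 (limma, log2, SE 0.19, adjusted p = 0.00445). Maml1, a second coactivator of the family, read between 5.57 and 5.78 in the 4 arrays, and its effect of -0.13 (SE 0.15) did not pass (limma, adjusted p = 0.54).

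Both target genes among the members fell. Hes1, for a transcriptional repressor, read 4.44 in stimulated Tilcara and 4.65 in stimulated wild type, against 7.71 in non-stimulated Tilcara and 7.20 in non-stimulated wild type. This was 9.66-fold lower in Tilcara and 5.84-fold lower in wild type. Of the 10 members Hes1 had the lowest effect, -2.91 (limma, log2, SE 0.23, adjusted p = 0.00182), and 1.83% of all genes used lay lower.

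Dtx1, for the Notch-binding ubiquitin ligase Deltex 1, read 5.67 in stimulated Tilcara and 5.59 in stimulated wild type, against 7.03 in non-stimulated Tilcara and 7.12 in non-stimulated wild type. The genotypes differed by no more than 0.09 in either state. The signal was 2.56-fold lower with stimulation in Tilcara and 2.88-fold lower in wild type, and the fall of -1.44 had an SE of 0.15 (limma, log2, adjusted p = 0.00336). A second Dtx1 probe set, 17441755, gave differences of -1.20 in Tilcara and -1.31 in wild type.

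Set side by side by genotype, the responses of the members ran in the same direction in 8 of 10 genes. Over all genes used, 17.6% had stimulation differences of opposite sign in the genotypes. The Tilcara response minus the wild-type response was -0.03 for Notch1, 0.17 for Notch2 and 0.17 for Dtx1, small values beside their steps with stimulation. It was -0.73 for Hes1, -0.76 for Lfng and -1.11 for the brighter Rbpj probe set, whereas the central 95% of all genes used ran from -0.89 to 0.98. With the other Rbpj probe set the difference was -0.10. Of the 7 members that passed the stimulation test, Notch1, Notch2, Dtx1 and Rbpj had the smaller response in Tilcara. Hes1, Maml2 and Adam10 had the larger response there. The difference between responses has no test here, since it is the only residual of the fit.

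**Figure D3:**
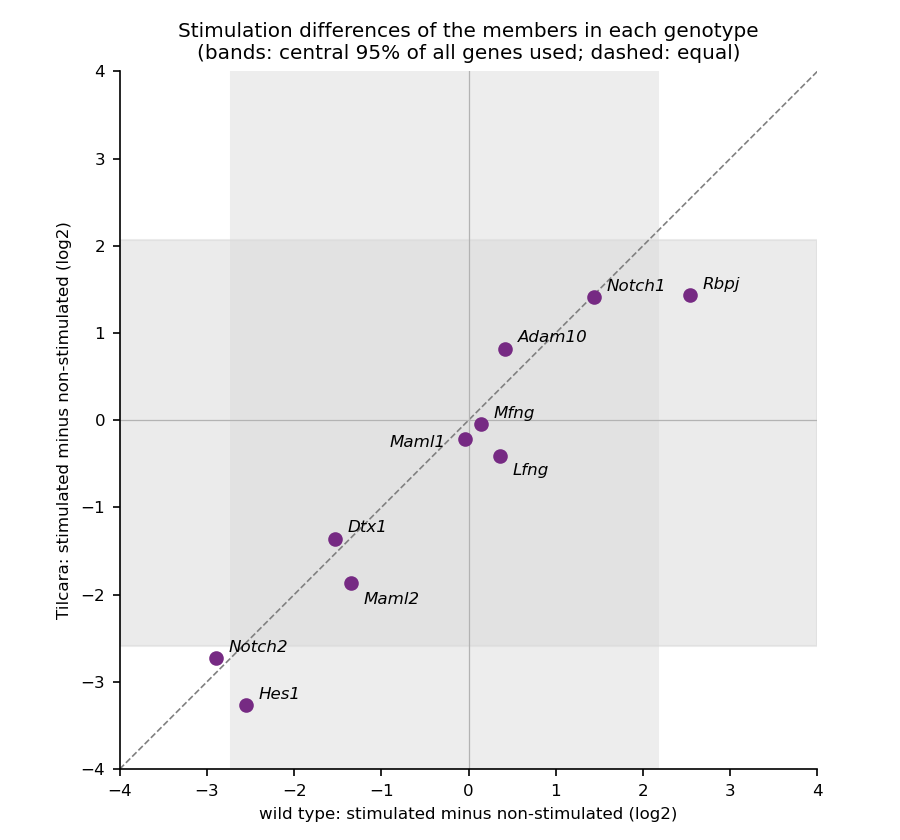
The log2 difference between the stimulated and the non-stimulated array in Tilcara (y axis) is plotted against that in wild type (x axis) for the 10 members; grey bands hold the central 95% of all genes used in each genotype and the dashed line marks equal differences. Notch1, Notch2 and Dtx1 lie near the line, and Rbpj lies farthest from it.

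No member differed 2-fold between Tilcara and wild type in either state. Of all genes used, 0.955% were 2-fold or more up in stimulated Tilcara and 0.747% were 2-fold or more down, and in non-stimulated cells the shares were 0.425% and 0.658%. Stimulated Tilcara was 1.66-fold lower than stimulated wild type for Lfng, at 6.90 against 7.63, and 1.39-fold higher for Adam10, at 9.24 against 8.76. In non-stimulated cells Tilcara was 1.86-fold higher for Rbpj and 1.43-fold higher for Hes1, and 1.27-fold lower for Notch2. The second Rbpj probe set did not show that difference, with -0.16 in non-stimulated and -0.26 in stimulated cells. Notch1 was higher in Tilcara in both states, by 0.31 in stimulated and 0.34 in non-stimulated cells.

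In the limma fit of genotype over both states, 0 of 10 members passed, and 0 of 12456 genes did (0.0%). At an unadjusted p below 0.05 limma had 0 members and 667 genes (5.35%). The member nearest to the threshold was Notch1, with an effect of 0.33 (SE 0.15, unadjusted p = 0.0824, adjusted p = 0.866).

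**Figure D4:**
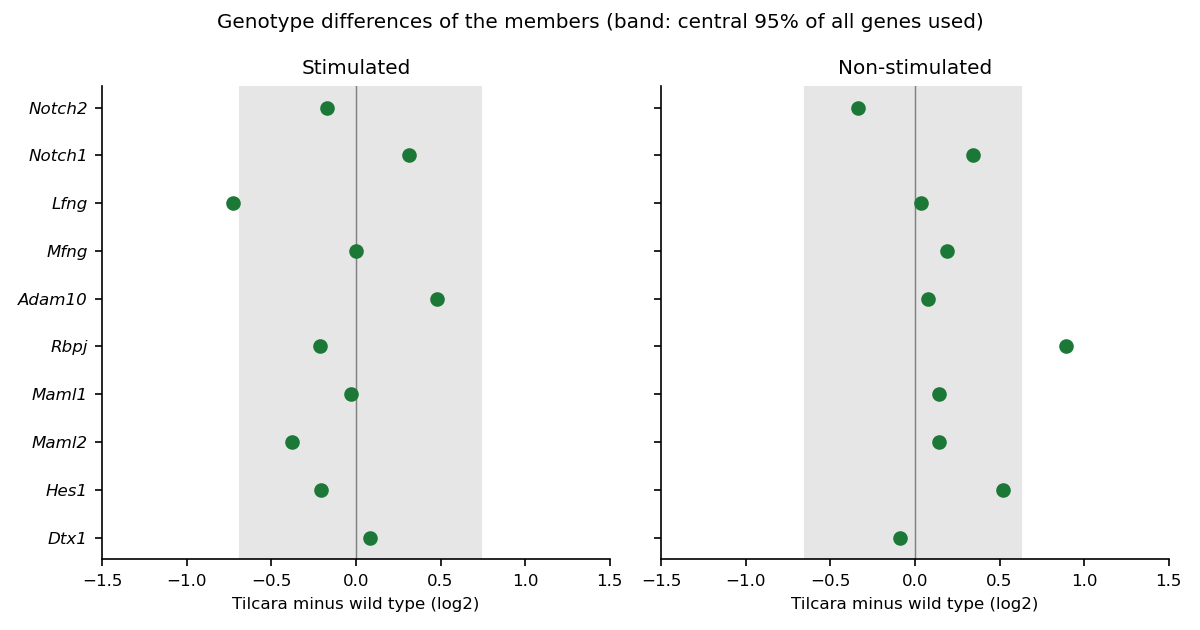
The log2 difference between Tilcara and wild type (x axis) is shown for each member (rows) in stimulated cells (left) and non-stimulated cells (right), with the central 95% of all genes used as a grey band. Lfng in stimulated cells, at -0.73, and Rbpj in non-stimulated cells, at 0.89, are the points outside the bands.

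Another 55 genes of the pathway were listed, of which 43 were used. With stimulation 8 rose and 11 fell, which is 44.2% against 44.8% of all genes used, and their median effect was -0.08. Of the 43 genes, 31 lay above the floor in all 4 arrays. Of those that fell, Dll1, Dtx3 and Kat2b reached the floor only in non-stimulated arrays and so were used only through the state where they were high. Among the 35 genes that reached the floor in both states, 8 rose and 8 fell, a share of 45.7% against 45.3% of all genes that did so. The receptors and ligands were mostly dim. Of 7 such genes, Notch4, Jag2 and Dll1 were used, and Notch3, Dll3, Dll4 and Jag1 stayed below the floor in all arrays. Dll1, for the ligand that Notch2 meets in the spleen, was counted among those that fell. It read no more than 3.21 in the stimulated arrays of Tilcara and wild type, against 3.79 in non-stimulated Tilcara and 3.87 in non-stimulated wild type. It reached the floor in the non-stimulated wild-type array alone, where it was highest, so no test is given for it.

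Genes that act on the receptor before and during cleavage went both ways. Furin, for the protease that cuts newly made Notch, rose (limma, adjusted p = 0.0269), with 6.14 in stimulated Tilcara and 7.34 in stimulated wild type, against 5.36 in non-stimulated Tilcara and 5.33 in non-stimulated wild type. Stimulated Tilcara was 2.30-fold lower than stimulated wild type for Furin, and no other gene of the 43 differed by 2-fold between genotypes. Poglut1, for the O-glucosyltransferase of Notch, rose too (limma, adjusted p = 0.0175), while Pofut1 and Rfng did not pass. Of 10 cleavage genes used, Tspan5 rose, Psen2 and Tspan17 fell and 7 did not pass, a share of 30.0% called against 44.8% of all genes used. Psen2, for a catalytic subunit of gamma-secretase, differed by -1.40 in Tilcara and -0.82 in wild type. The other gamma-secretase subunits used, Ncstn, Psenen, Aph1a and Aph1b, did not pass. Ncstn and Psenen differed by no more than 0.14 with stimulation in either genotype. Aph1a differed by 0.363 in Tilcara and 0.595 in wild type. Aph1b, which reached the floor in non-stimulated Tilcara alone, differed by -0.579 in Tilcara and -0.278 in wild type.

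The lowest effects among the 43 genes were those of turnover and nuclear genes. Nedd4, for a ubiquitin ligase that acts on Notch among other proteins, read 3.74 in stimulated Tilcara and 4.32 in stimulated wild type, against 7.39 in non-stimulated Tilcara and 7.44 in non-stimulated wild type (limma, adjusted p = 0.00126). Its relative Itch fell (adjusted p = 0.0138, limma), and 2 ligase genes of the group rose, Mib1, whose product acts on Notch ligands, and Fbxw7, which marks the cleaved receptor for degradation. Dtx3, a Deltex family gene, read 3.36 in stimulated Tilcara and 3.66 in stimulated wild type, both below the floor, against 4.32 in non-stimulated Tilcara and 4.51 in non-stimulated wild type. Of 12 nuclear genes used, 3 rose and 5 fell, a share of 66.7% called against 44.8% of all genes used. L3mbtl3, an RBPJ-bound corepressor gene, differed by -2.61 in Tilcara and -2.13 in wild type. The acetyltransferase gene Ep300 and the coactivator gene Maml3 fell, and Crebbp, related to Ep300, did not pass. Kat2b, another acetyltransferase gene and 1 of the 5 counted as fallen, read 3.36 in stimulated Tilcara and 3.55 in stimulated wild type, both below the floor, against 5.39 in non-stimulated Tilcara and 5.53 in non-stimulated wild type. Hdac2, a deacetylase gene, rose by 1.04 in Tilcara and 1.34 in wild type, whereas Hdac1 fell by 0.66 in Tilcara and 0.55 in wild type. Of the other HES, HEY and NRARP target genes, 0 of the 4 used passed, beside 44.8% of all genes used (limma, 0 also at an unadjusted p below 0.05). Hes5, Hey1, Heyl and Nrarp read between 3.66 and 4.73.

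**Figure D5:**
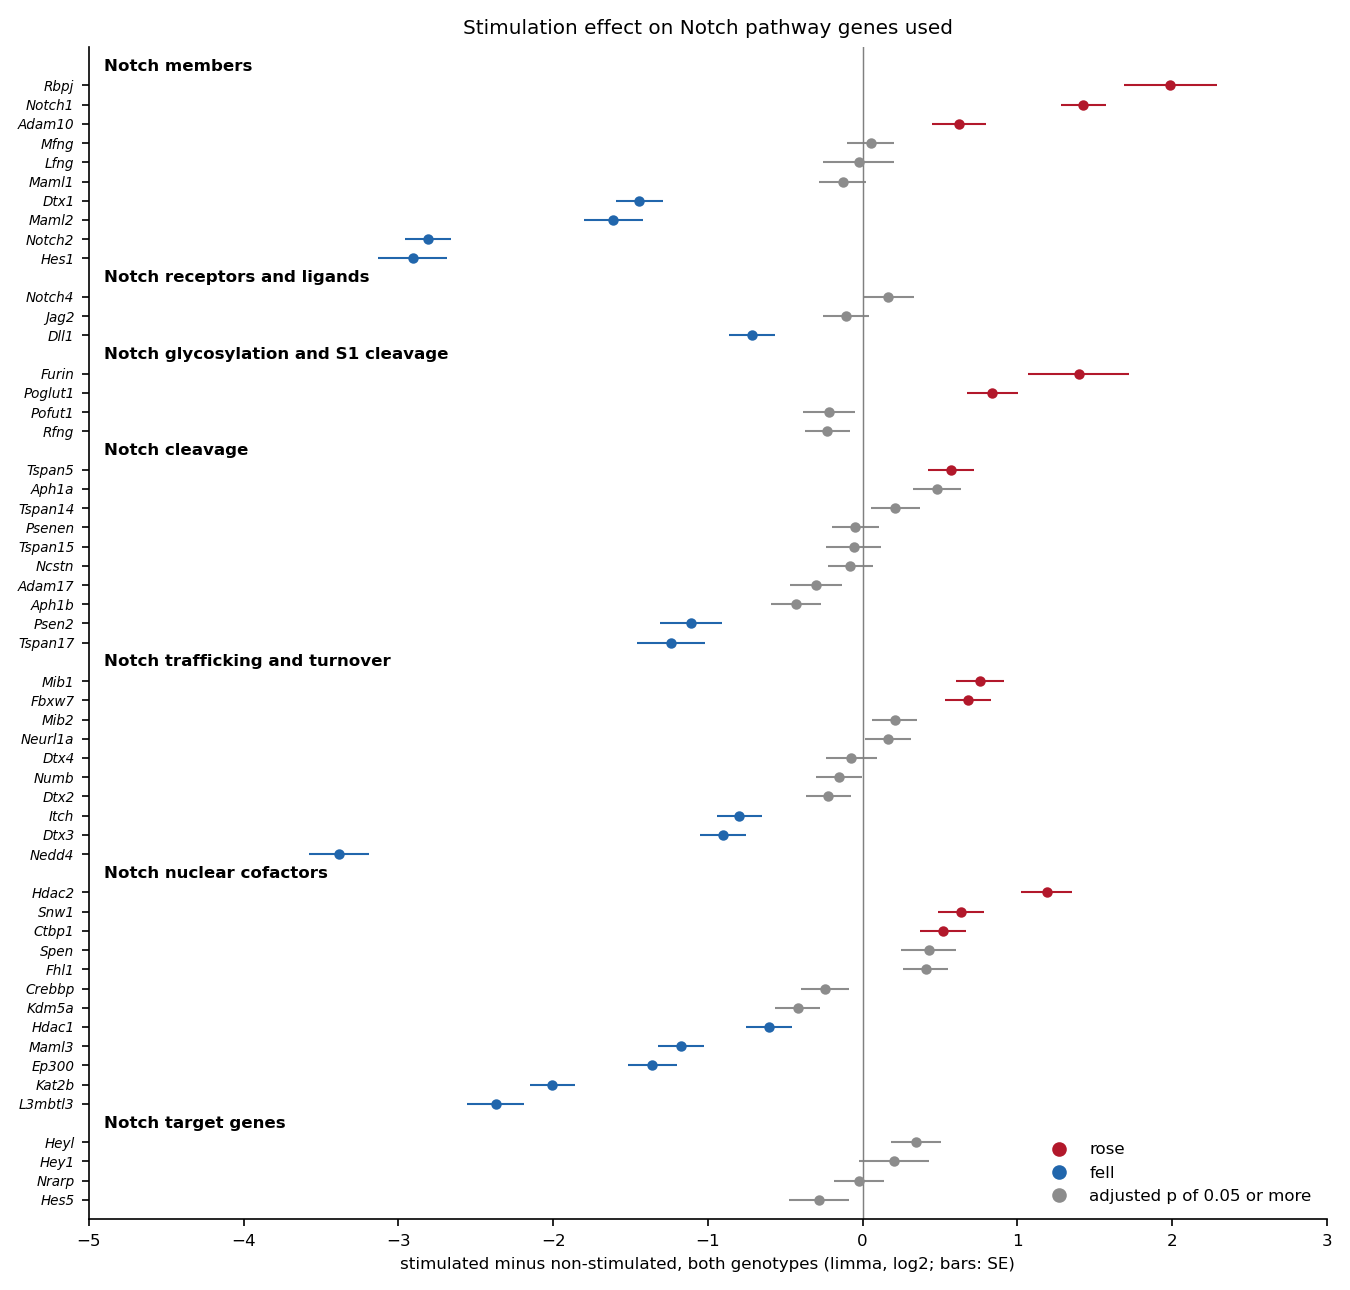
Limma stimulation effects over both genotypes (x axis, log2, bars are SE) of the 10 members and of the 43 other pathway genes used, by group; red genes rose, blue genes fell, and grey genes had an adjusted p of 0.05 or more. Effects on both sides of 0 are seen in every group, and none of the 4 target genes of the last group passed.

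Genes known from marginal zone B cells did not follow one direction. Of 8 used, Cd9 and S1pr3 rose, Cr2, Cd1d1 and Mzb1 fell, and 3 did not pass, a share of 62.5% called against 44.8% of all genes used. Cr2, the complement receptor CD21, read 8.37 in stimulated Tilcara and 8.77 in stimulated wild type, against 9.99 in non-stimulated Tilcara and 9.87 in non-stimulated wild type. S1pr3, a sphingosine phosphate receptor gene, read 7.15 in stimulated Tilcara and 7.02 in stimulated wild type, against 5.61 in non-stimulated Tilcara and 5.48 in non-stimulated wild type. Of 4 follicular B cell genes used, Fcer2a, Klf2 and Cxcr5 fell and Ccr7 did not pass, a share of 75.0% called against the same 44.8%. Between genotypes, the median differences of the marginal zone genes were 0.04 in stimulated and -0.01 in non-stimulated cells, beside 0.01 and 0.02 over all genes used.

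The genes whose 4 signals followed Notch2 most closely, by root mean square distance after subtracting each gene's mean over the 4 arrays, were Smpd2 (0.067 log2 units), Prkdc (0.074) and Fam168a (0.087). Those closest to Dtx1 were Tmem134 (0.021), Slc46a3 (0.026) and Arhgap26 (0.033). With 4 arrays, which differ mainly by stimulation, such likeness is a description.

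Notch1, Hes1 and Dtx1 are also expressed by T cells and thymocytes, and thymi were among the organs used. Of 6 measured T cell markers, 1 lay above the floor in stimulated Tilcara and 1 in stimulated wild type, against 1 in non-stimulated Tilcara and 5 in non-stimulated wild type. Their summed linear signal was 61.4 in stimulated Tilcara and 80.4 in stimulated wild type, against 74.8 in non-stimulated Tilcara and 139.6 in non-stimulated wild type. Of 6 measured thymocyte genes, Rag2, Dntt, Arpp21 and Themis lay below the floor in all 4 arrays and Cd8b1 reached it in non-stimulated wild type alone, at 4.04. Ptcra, for a chain of the receptor of immature T cells, read above it in all, at 5.05 in stimulated Tilcara and 5.05 in stimulated wild type, against 4.38 in non-stimulated Tilcara and 4.92 in non-stimulated wild type. Of 7 neutrophil and macrophage markers, 1 was above the floor in stimulated Tilcara and 1 in stimulated wild type, against 2 in non-stimulated Tilcara and 5 in non-stimulated wild type. Their signals summed to 63.8 in stimulated Tilcara and 81.5 in stimulated wild type, against 90.4 in non-stimulated Tilcara and 838.5 in non-stimulated wild type. NK cell markers summed to 45.5 in stimulated Tilcara and 39.9 in stimulated wild type, against 127.0 in non-stimulated Tilcara and 122.6 in non-stimulated wild type. Dendritic cell markers summed to 56.8 in stimulated Tilcara and 68.5 in stimulated wild type, against 154.4 in non-stimulated Tilcara and 76.5 in non-stimulated wild type. Klk1 of that list read 6.41 in non-stimulated Tilcara and 2.75 in non-stimulated wild type. The 7 B cell markers summed to 1993 in stimulated Tilcara and 1700.0 in stimulated wild type, against 9086 in non-stimulated Tilcara and 9408 in non-stimulated wild type. Summed signals were thus highest in the non-stimulated wild-type array for the T cell and the neutrophil and macrophage lists. For the NK cell list they were close in the non-stimulated arrays, at 127.0 in Tilcara and 122.6 in wild type. The dendritic sum was highest in non-stimulated Tilcara through Klk1 alone. Siglech of that list read 5.06 in non-stimulated Tilcara and 4.93 in non-stimulated wild type. The part of these cells in the member values was not tested.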

How the data were processed

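Total RNA of 4 samples was labelled with biotin for Affymetrix arrays, per the labels' protocols. The deposited values are log2 signals of 41345 probe sets, made by the authors with RMA (background correction, quantile normalization between arrays, 1 value per probe set), per the submitters' processing notes. Version, annotation and genome build are not stated there. Quantile normalization hides a change in total RNA per cell.

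By the platform annotation 23521 probe sets had 1 symbol, 1814 several and 16010 none. The brightest probe set stood for its gene, and genes with no array at 3.83 or above were left out. Single-array differences (4 comparisons) had no test and were counted at 2-fold. Stimulation and genotype were fitted additively with limma 3.58.1 in R 4.3.3 (lmFit, eBayes, Benjamini-Hochberg, threshold 0.05). A run of the fit on simulated data gave every gene the same spread, so it cannot tell how well the p-values hold for these data. The p-values rest on 1 residual degree of freedom and on a spread estimated over all genes. They measure no spread between replicates, and the number of arrays, 4, limits precision. The 10 members and the 17 gene lists were chosen with earlier results of these data known. All members were named, and any list gene could be; the 3 genes most like Notch2 and Dtx1 leave out predicted genes and small RNAs.

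Alternatives were median centring, cyclic loess, the mean over probe sets, no filter on low signals, a mean-variance trend in eBayes and counting at 1.5-fold; the other Rbpj probe set, and counts over genes that reached the floor in both states, were added after seeing the data. Promoter windows are from RefSeq, GRCm38.p6.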

Additional observations from a re-analysis of the deposited data

Results flagged for a closer look

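The 10 members were looked at, together with any other pathway gene whose genotype difference, or difference between responses, reached 2-fold, which added Furin. In 8 of these 11 genes the difference between genotypes or between states had opposite signs in the groups compared; with 1 array in each group the difference between them was not tested. Such signs are common: for genotype differences they were seen in 47.0% of all genes used and in 16 of the 43 other pathway genes, and for stimulation differences in 17.6% and in 6 of the 43.

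Lfng differed with stimulation by -0.41 in Tilcara and 0.36 in wild type, so that the response in Tilcara minus that in wild type was -0.76. The corresponding values of Mfng were -0.04 and 0.15, with a difference of -0.19.

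The other genes had a genotype difference of opposite sign in the states, given as Tilcara minus wild type. For Rbpj (brighter probe set) it was -0.21 in stimulated and 0.89 in non-stimulated cells, with a difference of -1.11 between them. Furin had -1.20 and 0.03, with a difference of -1.23. Hes1 had -0.21 and 0.52, with a difference of -0.73. Maml2 had -0.38 and 0.14, with a difference of -0.52. The values were smaller for Maml1, with -0.03 and 0.14 and a difference of -0.17, and for Dtx1, with 0.08 and -0.09 and a difference of 0.17.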

How the results depend on the processing

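Of the members' limma effects, 100 of 102 values under the alternatives kept their side of the threshold and their direction where called. The exceptions were those of Adam10 given above, whose adjusted p ran from 0.0115 to 0.113. The 102 values include those of the other Rbpj probe set, which reached the floor only in the stimulated arrays. Its stimulation call is therefore no sign of stability. Of the 164 single-array differences, 10 moved by at least the spread that limma took as typical (an SD of 0.1655 log2 units), and none that was counted at 2-fold changed sign. Many of the 164 could not move. Dropping the filter changes no such difference, and the mean over probe sets changes none for the 8 members with 1 probe set. Counted at 1.5-fold, 1 member (Rbpj) was higher in non-stimulated Tilcara and 1 (Lfng) was lower in stimulated Tilcara, against 0 each at 2-fold. Leaving out a replicate was not possible with 1 array in each group. The additive fit compares the states within each genotype, and with 1 array in each group no further pairing was possible. Signals near the floor understate differences, which bears on the second Rbpj probe set, the ligands and the HEY genes.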

Other observations

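The second Dtx1 probe set, 17441755, stood among identifiers of genes on the plus strand of chromosome 5, as given by RefSeq for the 6 of its 12 nearest neighbours with an entry in the promoter table, whereas Dtx1 is on the minus strand. It read 4.89 in stimulated Tilcara and 4.85 in stimulated wild type, against 6.09 in non-stimulated Tilcara and 6.16 in non-stimulated wild type. Which strand its probes detect was not tested.

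Tetraspanin genes whose products escort ADAM10 were compared between non-stimulated Tilcara and non-stimulated wild type, with no test. Tspan14 and Tspan17 were higher in Tilcara, by 0.57 and 0.68 on the log2 scale. Tspan15 differed by 0.155 and Tspan5 by -0.111. The central 95% of all genes used ran from -0.65 to 0.629, so Tspan17 lay just outside it and the others inside. Tspan17 read 5.96 in non-stimulated Tilcara and 5.28 in non-stimulated wild type, and 4.37 and 4.39 in the stimulated arrays of the same genotypes.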
